A study of Mus musculus with 21 samples.

Results

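Wild-type (WT) bone marrow-derived macrophages kept in lipopolysaccharide (LPS, a membrane component of Gram-negative bacteria) for 18 h were set against WT macrophages kept in it for 4 h, to describe which transcripts had declined, which had persisted and which were raised late. The comparison rests on 8 of the 21 RNA-seq libraries of the series, 4 at 18 h and 4 at 4 h, chosen by the genotype and time in their titles. The marrow came from the hind legs of male C57Bl6/J mice of 6 to 12 weeks, was grown for 7 days in medium with 15% L929-conditioned medium (a source of the growth factor M-CSF) and re-seeded, and LPS was added at 100 ng/ml. The series also holds 4 WT libraries at 0 h, used here as a baseline, and 9 libraries labelled Nur77-KO, 3 at each time, whose genotype tag reads cre. Nr4a1 is the gene of Nur77, a nuclear receptor. The labels do not say whether the 4 libraries of a time came from separate mice or cultures, so the p-values rest on a spread between libraries that may be technical. No untreated culture of 4 or 18 h was analysed here, so time in LPS and time after re-seeding cannot be told apart.

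LPS is sensed on macrophages by Toll-like receptor 4, which signals through the adaptors MyD88 and TRIF to the transcription factors NF-kB, AP-1 and IRF3. A first wave of cytokine and chemokine genes follows, and the interferon-beta made in it acts back on the cells through its own receptor to raise antiviral genes. Inhibitors induced by the same signals, among them the IkB proteins, A20 and the mRNA-destabilising protein tristetraprolin, are known to bring the first wave down, and macrophages in prolonged LPS are known for a changed set of metabolic, repair and antimicrobial transcripts.

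Totals over genes ranged from 12500551 to 24724013 estimated counts in the 18 h libraries and from 14008382 to 29650081 in the 4 h libraries. Levels are given as counts per 1000000 (CPM) of the scaled library total, always in the order of library number 1 to 4, and are not comparable between genes since they are not per length. WT library 1 at 4 h stood apart from the other 4 h libraries: it lay far above or below the other libraries of its time at 4.75% of 8865 genes with a mean of at least 5 CPM, against 0.609% to 0.88% for the other 4 h libraries, and several values that it moves are given with and without it. WT library 1 at 0 h also stood apart, at 4.23% of these genes, against 0.508% to 1.3% for the other 0 h libraries, and the 0 h means below include it. Nr4a1, the targeted gene, had 13.4 to 16.2 CPM in WT libraries at 0 h and 12.2 to 12.4 CPM in those labelled Nur77-KO. At 4 h it had 1.3 to 7.25 CPM in WT libraries and 0.531 to 1.21 CPM in those labelled Nur77-KO. At 18 h it had 0.965 to 1.33 CPM in WT libraries and 2.1 to 3.48 CPM in those labelled Nur77-KO. The libraries labelled Nur77-KO were thus below those of WT at 0 h and 4 h and above them at 18 h. All of them held counts of the transcript, so its counts do not settle that label. The deleted stretch is not given in the labels. The sources used here do not say whether counting used strand, so reads of overlapping exons cannot be told apart. Among the genes below this bears on Stat5a with Stat3, Tap1 with Psmb9, Fdft1 with Ctsb, Stat6 with Nab2 and Ccnd3 with Bysl. It also bears on Ddit3 with Mars, Csf1r with Hmgxb3, Atp5a1 with Haus1 and Pfkp with Pitrm1. The same holds for Ppp1r15a with Tulp2, Aldoa with Fam57b and Ccnd1 with LTO1. Exons of Ifi47 overlap those of Olfr56 on the same strand. Overlaps with clone-named genes, antisense transcripts and microRNAs are left out.

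Of 12529 genes tested, 8981 differed between 18 h and 4 h at an adjusted p under 0.05 in edgeR's quasi-likelihood fit, with p-values adjusted after Benjamini and Hochberg, which is 71.7% of all genes. At 18 h, 4660 were higher (37.2%) and 4321 were lower (34.5%), and at 8157 genes (65.1%) the 2 sets of 4 libraries did not overlap. Genes picked from the lists or among the largest changes had to show no overlap. Where it is stated for them below, it follows from that rule. Without library 1 at 4 h, 4609 genes were higher and 4233 lower. Changes of at least 2-fold were called at 2238 genes higher at 18 h (17.9%) and 2126 genes lower at 18 h (17%). The median log2 fold change over all genes tested was 0.06. With upper-quartile scaling that median was 0.22 and the share of higher genes among the calls 60.1%, against 51.9% here, so that changes of that size depend on the scaling. The TMM factors that scale the WT libraries were 0.699 to 0.762 at 4 h and 0.988 to 1.03 at 18 h. At 0 h they were 1.42 to 1.47. Small changes, such as those of Zfp36, Rnf213 and Tor3a, and the rules on levels below therefore rest on these factors. With so large a share of all genes called, a list in which about 37.2% of the genes were higher and 34.5% lower had no more than the background, and shares are printed again below where a list came near it.

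**Figure D1:**
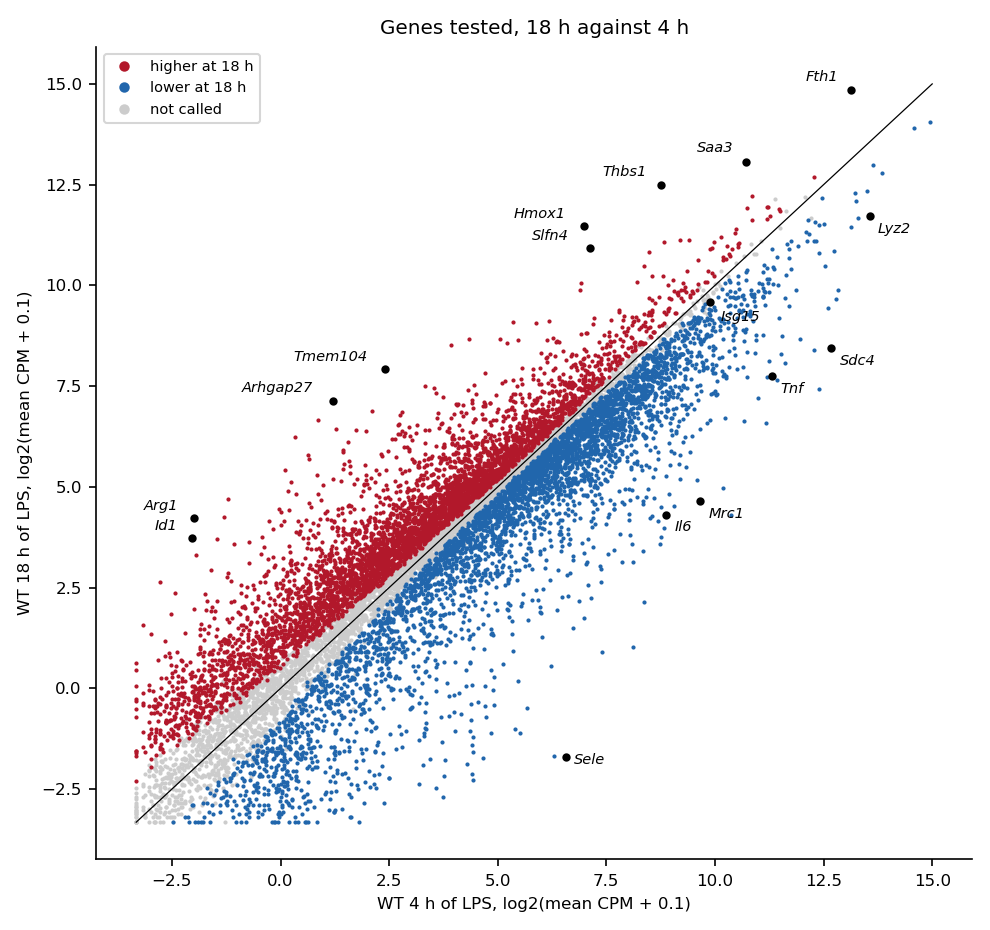
Mean level of each gene tested, as log2(mean CPM + 0.1), at 18 h (vertical axis) and at 4 h (horizontal axis) of LPS in WT macrophages, with genes above the line of equality higher at 18 h. Named genes are in black, from Sele with a mean of 0.205 CPM at 18 h and 95 CPM at 4 h to Arg1 with 18.5 CPM at 18 h and 0.15 CPM at 4 h.

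Most transcripts of inflammatory cytokines and mediators that were high at 4 h were lower at 18 h. Of 40 genes in a list of NF-kB-driven cytokines and mediators, 36 passed the filter on low counts, of which 25 were lower (34.5% of all genes were), 8 higher (37.2% of all genes were) and 3 not called. Their median log2 fold change was -2.36, against 0.06 over all genes tested. Tnf, the cytokine at the head of the acute response, at chr17:35199367-35202007 (GRCm38.p6), had 246, 217, 191 and 209 CPM at 18 h, against 2063, 2505, 2701 and 2927 CPM at 4 h (log2 fold change -3.56, SE 0.18, edgeR adjusted p = 1.4e-13). Il6, a secreted cytokine of the acute phase response, had 24.7, 17.9, 17.5 and 18.6 CPM at 18 h and 505, 444, 449 and 479.6 CPM at 4 h (log2 fold change -4.58, SE 0.22, edgeR adjusted p = 7.8e-14). Neither gene's 18 h libraries came near those of 4 h. Il12b, the shared subunit of IL-12 and IL-23, was at 20.6, 14.8, 15.6 and 25.8 CPM at 18 h, against 221, 356, 398 and 524 CPM at 4 h (log2 fold change -4.29, SE 0.28, edgeR adjusted p = 1.3e-11). Ptgs2, the inducible cyclooxygenase of prostaglandin synthesis, was at 96.7, 96.3, 114 and 88.4 CPM at 18 h and at 1474, 1761, 1740 and 1528 CPM at 4 h (log2 fold change -4.04, SE 0.29, edgeR adjusted p = 4.4e-11). All 4 genes nevertheless stayed above the 0 h libraries, whose means were 8.94 CPM for Tnf, 0.281 for Il6, 0.329 for Il12b and 2.02 for Ptgs2. In a bulk sample, fewer cells that carry a transcript and less of it per cell cannot be told apart.

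Other mediators were lower at 18 h as well. Nos2, the inducible nitric oxide synthase, had 105, 123, 170.0 and 171 CPM at 18 h and 819, 664, 828 and 814 CPM at 4 h (log2 fold change -2.46, SE 0.27, edgeR adjusted p = 4.9e-08). Acod1, which makes itaconate from a citric acid cycle intermediate, had 3390, 3104, 3070 and 3390 CPM at 18 h and 12099, 9027, 9724 and 9225 CPM at 4 h (log2 fold change -1.63, SE 0.36, edgeR adjusted p = 0.00042), with a mean of 9.91 CPM at 0 h. Il1b, the precursor of IL-1 beta, had 1150, 842, 771 and 979.6 CPM at 18 h and 1890, 2252, 2429 and 2409 CPM at 4 h (log2 fold change -1.26, SE 0.19, edgeR adjusted p = 4e-06). The libraries of the 2 times did not overlap in any of these 3 genes. Tnfsf9, the ligand of the costimulatory receptor 4-1BB, was at 3.17 to 5.78 CPM at 18 h, against 108 to 123 CPM at 4 h (log2 fold change -4.76, edgeR adjusted p = 2.1e-16). Ifnb1, which encodes interferon-beta, was low throughout, at 4.64, 3.68, 4.99 and 6.17 CPM at 18 h and 23.8, 5.44, 7.95 and 10 CPM at 4 h, with overlapping ranges (log2 fold change -1.31, SE 0.31, edgeR adjusted p = 0.00085). Library 1 at 4 h held the highest Ifnb1 level. Leaving it out, the log2 fold change was -0.72 (edgeR adjusted p = 0.0069).

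The largest fall among genes with a mean of at least 5 CPM over the 8 libraries was that of Sele, the endothelial adhesion molecule E-selectin. Its level was 0.183, 0.235, 0.402 and 0 CPM at 18 h, against 81.9, 87.8, 109.9 and 100.5 CPM at 4 h (log2 fold change -8.88, SE 0.33, edgeR adjusted p = 8.6e-16), and it averaged 0.0891 CPM at 0 h. Every 18 h library was back at the level of a few reads. Mmp13, a collagenase chosen after its values were seen, was at 272 to 372 CPM at 18 h and at 4150 to 6756 CPM at 4 h (log2 fold change -3.89, edgeR adjusted p = 2e-13).

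A smaller group of mediators rose further between 4 h and 18 h. Saa3, an acute phase apolipoprotein, had 10065, 6986, 7594 and 9598 CPM at 18 h, against 4039, 869, 1045 and 812 CPM at 4 h (log2 fold change 2.34, SE 0.56, edgeR adjusted p = 0.0008). Library 1 lay far above the other 4 h libraries. Leaving it out, the log2 fold change was 3.24 (edgeR adjusted p = 1.2e-05). Lcn2, a siderophore-binding protein that is also on the list of neutrophil markers, had 196, 143, 157 and 230.5 CPM at 18 h and 48.9, 37.7, 39.8 and 46.7 CPM at 4 h (log2 fold change 2.06, SE 0.2, edgeR adjusted p = 5.2e-09). Il1rn, the secreted antagonist of the IL-1 receptor, was chosen after its values were seen and had 4396, 4208, 5068 and 5435 CPM at 18 h, against 2293, 1756, 1739 and 1592 CPM at 4 h (log2 fold change 1.37, SE 0.14, edgeR adjusted p = 2.5e-08). Every 18 h library lay above every 4 h library in Saa3, Lcn2 and Il1rn, which the rule that chose Lcn2 required. Il10, the anti-inflammatory cytokine, had 33.1, 25.2, 28.8 and 31.8 CPM at 18 h and 24.3, 16.4, 22.4 and 20.9 CPM at 4 h, sets that did not overlap, but the difference did not pass the test (log2 fold change 0.49, SE 0.24, edgeR adjusted p = 0.073). It passed with upper-quartile scaling (0.66), limma-voom (0.48), the fit to the WT libraries of both times alone (0.49) and the replicate block (0.51).

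Among chemokines, which direct leukocyte movement, 22 of 24 listed genes were tested, 16 were lower at 18 h and 3 higher, with a median log2 fold change of -1.92. Cxcl1, a neutrophil attractant, was at 0.793, 0.783, 0.563 and 1.64 CPM at 18 h and 5.35, 21.6, 19.8 and 30.3 CPM at 4 h (log2 fold change -4.32, SE 0.42, edgeR adjusted p = 7.4e-09). Cxcl10, an interferon-induced attractant of T cells, was at 2776, 2563, 3015 and 2748 CPM at 18 h and 10097, 8038, 9207 and 8296 CPM at 4 h (log2 fold change -1.68, SE 0.23, edgeR adjusted p = 1.2e-06). Both fell without overlap, although Cxcl10 kept a level far above its 0 h mean of 23.2 CPM. Cx3cl1, the membrane-bound chemokine fractalkine, was at 0.183 to 1.37 CPM at 18 h and at 5.1 to 21.9 CPM at 4 h (log2 fold change -5.00, edgeR adjusted p = 1.1e-07, and -5.75 without library 3 at 18 h). Ccl24, an eosinophil attractant, was at 0.402 to 1.3 CPM at 18 h and at 4.73 to 27.8 CPM at 4 h (log2 fold change -4.38, edgeR adjusted p = 7e-09). Ccl7 and Ccl2, attractants of monocytes, were higher at 18 h. Among their relatives, looked up after the values were seen, Ccl8 was lower, with means of 40.2 CPM at 18 h and 94.6 CPM at 4 h (log2 fold change -1.24, edgeR adjusted p = 9.2e-07), and Ccl12 was not called (log2 fold change 0.09, edgeR adjusted p = 0.73). Ccl7 had 996, 777, 979 and 1003 CPM at 18 h and 486, 682, 650.4 and 699 CPM at 4 h (log2 fold change 0.58, SE 0.15, edgeR adjusted p = 0.0016). Ccl2 had 640.1, 614, 638 and 626 CPM at 18 h and 273, 587, 498 and 528 CPM at 4 h, a difference that passed narrowly (log2 fold change 0.42, SE 0.17, edgeR adjusted p = 0.037) and did not pass with median-of-ratios scaling (0.35), DESeq2 (0.35), the fit to the WT libraries of both times alone (0.41), or without library 1 at 4 h (0.23) or any one of the 18 h libraries. Ccl5, a T cell attractant, had 4942, 4212, 4177 and 4644 CPM at 18 h and 3145, 2175, 2684 and 2624 CPM at 4 h, and the libraries did not overlap, but the difference did not pass (log2 fold change 0.76, SE 0.37, edgeR adjusted p = 0.075). It passed with upper-quartile scaling (0.92), limma-voom (0.77), the fit to the WT libraries of both times alone (0.76) and the replicate block (0.77).

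Promoter sequence is shown for Sele, Il6 and Cxcl1, as members of the falling group whose promoter windows hold letters of an NF-kB site. The windows run from 250 bases before to 50 bases after the RefSeq gene start (assembly GRCm38.p6, all 3 on the plus strand). Sele lies at chr1:164047984-164048283, Il6 at chr5:30012864-30013163 and Cxcl1 at chr5:90890995-90891294. The Sele window lies inside that gene's RefSeq span, chr1:164039614-164058487, so the start used for it is not the outer edge of the span. The letters searched, on both strands, were GGG, any 4 bases and TCC, and matches are in capitals.
Sele: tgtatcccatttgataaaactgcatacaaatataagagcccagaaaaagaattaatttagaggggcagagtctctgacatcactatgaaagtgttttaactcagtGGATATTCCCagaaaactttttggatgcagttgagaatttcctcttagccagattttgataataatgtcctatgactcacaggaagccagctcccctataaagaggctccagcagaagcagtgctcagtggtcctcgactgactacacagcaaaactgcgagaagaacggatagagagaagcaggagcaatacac
Il6: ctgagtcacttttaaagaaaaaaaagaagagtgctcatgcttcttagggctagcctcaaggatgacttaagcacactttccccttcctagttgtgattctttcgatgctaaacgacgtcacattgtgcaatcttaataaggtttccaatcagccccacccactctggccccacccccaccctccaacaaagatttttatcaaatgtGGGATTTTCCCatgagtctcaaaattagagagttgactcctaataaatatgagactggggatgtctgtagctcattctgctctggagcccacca
Cxcl1: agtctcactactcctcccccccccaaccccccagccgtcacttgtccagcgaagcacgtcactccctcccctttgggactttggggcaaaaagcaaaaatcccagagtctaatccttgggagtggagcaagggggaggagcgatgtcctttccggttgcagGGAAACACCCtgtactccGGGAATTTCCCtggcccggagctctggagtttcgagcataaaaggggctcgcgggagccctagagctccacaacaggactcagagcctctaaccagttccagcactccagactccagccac
The Sele match reads on the opposite strand and starts 145 bases before the gene start, counted as -145. Il6 has 1 match on each strand, which overlap and start at -44 and -43. Cxcl1 has 3 matches, at -89, -71 and -70, of which the last 2 overlap on opposite strands. Of 32851 promoter windows in the RefSeq table, 19.2% hold these letters, as do 27.2% of the tested genes found in the table and 12 of 25 genes (48%) of the cytokine and mediator list. The windows of Tnf, Il12b and Ptgs2, which fell as well, hold no match, which says only that these letters are not in these windows. The letters and the genes shown were chosen after the values were seen, and a match is a description of the sequence, not a binding site.

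Inhibitors of the same signals were mostly lower at 18 h too. Of 30 listed feedback inhibitors of NF-kB and MAP kinases, 22 were lower at 18 h and 4 higher, with a median log2 fold change of -1.32. Nfkbia, which encodes IkB alpha, had 376, 313, 314 and 323 CPM at 18 h and 1205, 1264, 1383 and 1301 CPM at 4 h (log2 fold change -1.96, SE 0.087, edgeR adjusted p = 1.9e-14). Tnfaip3, which encodes the ubiquitin-editing enzyme A20, had 214, 189, 204 and 196 CPM at 18 h and 2634, 2615, 2947 and 2838 CPM at 4 h (log2 fold change -3.78, SE 0.087, edgeR adjusted p = 1.5e-18). Both were tight within a time and wide apart between times. Tnip3, an A20-binding inhibitor of NF-kB, was at 194 to 236 CPM at 18 h and at 2224 to 2550 CPM at 4 h (log2 fold change -3.47, edgeR adjusted p = 5.2e-17). Dusp6, a phosphatase of the MAP kinase ERK, went the other way, at 40, 39.2, 38 and 39.9 CPM at 18 h and 1.6, 1.41, 2.01 and 1.7 CPM at 4 h (log2 fold change 4.54, SE 0.14, edgeR adjusted p = 1e-16). Trib1, a pseudokinase adaptor of ubiquitin ligases, was likewise higher, at 130.1 to 134 CPM at 18 h and 14.9 to 19.2 CPM at 4 h (log2 fold change 2.97, edgeR adjusted p = 1.3e-17). Both had been higher at 0 h than at 4 h, with 0 h means of 13.7 CPM for Dusp6 and 26.6 CPM for Trib1. In the same list, 15 of 25 genes with a promoter in the table (60%) hold the letters searched above.

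Regulators that shorten the life of cytokine mRNAs were mostly lower at 18 h, with 13 of 20 lower, 4 higher and a median log2 fold change of -0.59. With upper-quartile scaling 7 were higher. Zfp36, which encodes tristetraprolin, was at 487, 502, 499 and 485 CPM at 18 h and 725, 733, 708 and 682 CPM at 4 h (log2 fold change -0.53, SE 0.068, edgeR adjusted p = 5.6e-07), and stayed well above its 0 h mean of 124 CPM. Dcp1a, an mRNA decapping factor, was at 45.4 to 46.9 CPM at 18 h and at 178 to 197 CPM at 4 h (log2 fold change -2.02, edgeR adjusted p = 4.8e-15). Btg1, an adaptor of deadenylation, was at 83 to 93.7 CPM at 18 h and at 228 to 286 CPM at 4 h (log2 fold change -1.60, edgeR adjusted p = 4e-13). The paralogs Zfp36l1 and Zfp36l2 moved the other way. Zfp36l1 had 61.6, 72.5, 70.1 and 58.6 CPM at 18 h and 23.1, 19.8, 10.1 and 12.1 CPM at 4 h (log2 fold change 2.02, SE 0.19, edgeR adjusted p = 3.2e-09). Zfp36l2 had 56.1, 67, 65.1 and 61.9 CPM at 18 h and 29.6, 25.9, 23.5 and 21 CPM at 4 h (log2 fold change 1.33, SE 0.093, edgeR adjusted p = 3.5e-11). Their 0 h means of 352 CPM and 242 CPM were higher than at either time in LPS.

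Immediate early transcription factors did not move as one group. Of 27 listed, 13 were lower (48.1%, against 34.5% of all genes) and 6 higher (22.2%, against 37.2%). The other 8 were not called, and the median log2 fold change was -0.59. Nr4a3, the nuclear receptor NOR-1, showed the largest fall of the list, at 0.061, 0.0391, 0.322 and 0.0566 CPM at 18 h and 12.5, 11.7, 15.2 and 14.7 CPM at 4 h (log2 fold change -7.01, SE 0.33, edgeR adjusted p = 5.7e-14), and -7.89 without library 3 at 18 h. Csrnp1, a nuclear protein of this class, was at 27.1 to 34.1 CPM at 18 h and at 137 to 164 CPM at 4 h (log2 fold change -2.28, edgeR adjusted p = 2.1e-12). Fos, a subunit of AP-1, was higher at 18 h, at 67.8, 70.9, 70.2 and 67.1 CPM, against 27.9, 16.4, 18.9 and 15.8 CPM at 4 h (log2 fold change 1.8, SE 0.12, edgeR adjusted p = 2.7e-11), with a 0 h mean of 61 CPM. Klf10, a Krüppel-like factor induced by TGF-beta, was also higher, at 56.7, 53.9, 62.2 and 58.9 CPM at 18 h and 1.84, 2.62, 1.92 and 3.99 CPM at 4 h (log2 fold change 4.41, SE 0.16, edgeR adjusted p = 5.4e-16). Klf10 had a 0 h mean of 38.3 CPM. In each of these 4 genes the libraries of the 2 times stood clear of each other, which the rule for list members required. Egr1, a zinc finger factor, had 29.2, 22.5, 22.3 and 21 CPM at 18 h and 71.3, 10, 6.58 and 6.81 CPM at 4 h, with library 1 far above the rest at 4 h (log2 fold change -0.02, SE 0.48, edgeR adjusted p = 0.97). Without that library Egr1 was higher at 18 h, with a log2 fold change of 1.62 (edgeR adjusted p = 8.3e-08). Nr4a1 had 1.04, 1.33, 0.965 and 1.08 CPM at 18 h and 7.25, 2.16, 1.74 and 1.3 CPM at 4 h (log2 fold change -1.48, SE 0.4, edgeR adjusted p = 0.0023), and -0.56 (edgeR adjusted p = 0.045) without library 1 at 4 h.

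Most regulators of the interferon response were lower at 18 h. Among 35 listed interferon, IRF, STAT and SOCS regulators, 24 were lower (68.6%, against 34.5% of all genes) and 7 higher (20%, against 37.2%). Their median log2 fold change was -0.58. Changes of at least 2-fold were called at 15 lower and 0 higher members. Irf7, the interferon regulatory factor that amplifies type I interferon, was higher, at 2470, 2390, 2574 and 2671 CPM at 18 h and 2105, 1139, 1180 and 1214 CPM at 4 h (log2 fold change 0.84, SE 0.29, edgeR adjusted p = 0.013), and 1.10 without library 1 at 4 h. Socs3, the inhibitor of STAT3 signalling, was lower, at 335, 273, 296 and 329 CPM at 18 h and 1328, 1431, 1491 and 1430 CPM at 4 h (log2 fold change -2.20, SE 0.19, edgeR adjusted p = 8.6e-10). Neither gene had libraries that overlapped between the times. Cish, an inhibitor of STAT5, was at 0.244 to 0.483 CPM at 18 h and at 6.88 to 21.6 CPM at 4 h (log2 fold change -5.35, edgeR adjusted p = 1.7e-10). Stat5a itself was at 24.5 to 29 CPM at 18 h and at 282 to 383 CPM at 4 h (log2 fold change -3.66, edgeR adjusted p = 9.3e-18). Stat6, which transmits IL-4 signals, was at 169 to 189.6 CPM at 18 h and at 104 to 126 CPM at 4 h (log2 fold change 0.57, edgeR adjusted p = 4.7e-08). Its 0 h mean was 179 CPM.

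Of 54 tested antiviral effectors induced by interferon, 32 were lower at 18 h, 10 higher and 12 not called, with a median log2 fold change of -0.59. Ifih1, the RNA sensor MDA5, had 681, 679, 788 and 702 CPM at 18 h and 3402, 3283, 3498 and 3195 CPM at 4 h (log2 fold change -2.23, SE 0.16, edgeR adjusted p = 3.7e-11). Parp14, an ADP-ribosyltransferase, was at 1645 to 2016 CPM at 18 h and at 5532 to 7451 CPM at 4 h (log2 fold change -1.89, edgeR adjusted p = 3.4e-10). Slfn4, a schlafen family gene, rose the most in the list, at 2163, 2362, 1744 and 1464 CPM at 18 h, against 277, 99.8, 67.5 and 114 CPM at 4 h (log2 fold change 3.79, SE 0.48, edgeR adjusted p = 4.7e-07). Its relative Slfn1 was at 221 to 246 CPM at 18 h and at 60.5 to 117 CPM at 4 h (log2 fold change 1.62, edgeR adjusted p = 1.1e-06). Schlafen genes are near copies of each other and their reads may be shared, which was not tested. The interferon-induced GTPases showed no higher member: 14 of 19 tested were lower, with a median log2 fold change of -1.17, and without library 1 at 4 h 1 member was higher. Gbp5, a guanylate-binding protein that assists inflammasomes, had 764, 761, 890.2 and 810.2 CPM at 18 h and 7773, 6792, 7316 and 6577 CPM at 4 h (log2 fold change -3.14, SE 0.2, edgeR adjusted p = 6.9e-12). The GTPase Ifi47 was at 327 to 428 CPM at 18 h and at 1386 to 1717 CPM at 4 h (log2 fold change -2.03, edgeR adjusted p = 1.2e-08).

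Some transcripts raised at 4 h were within a narrow margin of that level at 18 h. By rule, the persisting genes had a 4 h mean at least 8 times that of 0 h (taken as at least 0.5 CPM) and an 18 h mean within 1.5 times that of 4 h, so their levels are a description. The 8 highest at 18 h were Ccl7, Fgl2, Rnf213, Ifit3, Stat2, Tgtp2, Isg15 and Tor3a. Isg15, a ubiquitin-like modifier, had 770.5, 670.1, 784 and 839 CPM at 18 h and 1110, 791, 990.2 and 895 CPM at 4 h, with a 0 h mean of 12 CPM. Ifit3, which restricts viral RNA, had 1971, 1945, 2237 and 2130 CPM at 18 h and 2715, 1441, 1570 and 1525 CPM at 4 h, with a 0 h mean of 96.2 CPM that includes 181 CPM in library 1, against 56.2 to 74.3 CPM in the other 0 h libraries. The libraries of the 2 times overlapped in Isg15, Ifit3, Stat2 and Tgtp2, and library 1 was the highest of the 4 h libraries in each of them. None of these 4 was called, with log2 fold changes of -0.31 for Isg15, 0.19 for Ifit3, 0.24 for Stat2 and 0.01 for Tgtp2. Since the rule admitted only small changes, the missing calls follow in part from it and do not show that a level was kept. Without library 1 at 4 h these values were -0.22, 0.45, 0.32 and 0.19, again with none called, although the other 4 h libraries of Ifit3, Stat2 and Tgtp2 all lay below those of 18 h. Stat2, a signal transducer of interferons, was at 1241 to 1378 CPM at 18 h and at 1025 to 1315 CPM at 4 h, and Tgtp2, a GTPase, was at 719.8 to 829 CPM at 18 h and at 671 to 1039 CPM at 4 h. Fgl2, a secreted fibrinogen-like protein, was at 2843 to 3800 CPM at 18 h and at 3885 to 5590 CPM at 4 h. Rnf213, an E3 ubiquitin ligase, was at 2346 to 3680 CPM at 18 h and at 3875 to 5970 CPM at 4 h, and Tor3a, an interferon-induced torsin ATPase, was at 668 to 747 CPM at 18 h and at 969 to 1037 CPM at 4 h. Within the margin set by the rule 3 of the 8 genes were called. Ccl7 was higher, as given above, Rnf213 was lower (log2 fold change -0.51, edgeR adjusted p = 0.028) and Tor3a was lower (log2 fold change -0.50, edgeR adjusted p = 0.0041). Fgl2 was not called (log2 fold change -0.54, edgeR adjusted p = 0.054).

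Promoter windows are shown for Isg15 and Ifit3, since both were chosen as persisting genes and both hold letters of an interferon-stimulated response element. Isg15 lies at chr4:156200769-156201068 on the minus strand and Ifit3 at chr19:34583279-34583578 on the plus strand of GRCm38.p6, each printed along its gene. The Ifit3 window lies inside that gene's RefSeq span, chr19:34583119-34588982, so the start used for it is not the outer edge of the span. The letters searched, on both strands, were GAAA, any 2 bases and GAAA, in capitals below.
Isg15: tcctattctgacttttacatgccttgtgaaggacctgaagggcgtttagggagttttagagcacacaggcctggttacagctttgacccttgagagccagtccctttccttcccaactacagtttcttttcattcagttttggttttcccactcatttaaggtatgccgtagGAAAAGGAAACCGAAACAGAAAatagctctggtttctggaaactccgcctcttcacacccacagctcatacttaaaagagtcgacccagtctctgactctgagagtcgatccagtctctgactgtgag
Ifit3: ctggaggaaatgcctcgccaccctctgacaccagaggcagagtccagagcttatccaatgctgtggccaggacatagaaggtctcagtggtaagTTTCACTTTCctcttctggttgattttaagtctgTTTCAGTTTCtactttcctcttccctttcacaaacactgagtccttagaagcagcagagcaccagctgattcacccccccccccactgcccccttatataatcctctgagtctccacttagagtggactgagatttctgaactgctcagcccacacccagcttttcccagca
Isg15 has 3 matches, starting at -78, -72 and -66, each overlapping the next by 4 bases. Ifit3 has 2 matches on the opposite strand, at -156 and -122. These letters are in 3.44% of all 32851 windows, in 4.15% of the tested genes found in the table, in 19 of 42 antiviral effectors (45.2%) and in 10 of 11 interferon-induced GTPases (90.9%), a list with 14 lower members. The letters were chosen after the values were seen, and a match is no measure of binding.

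**Figure D2:**
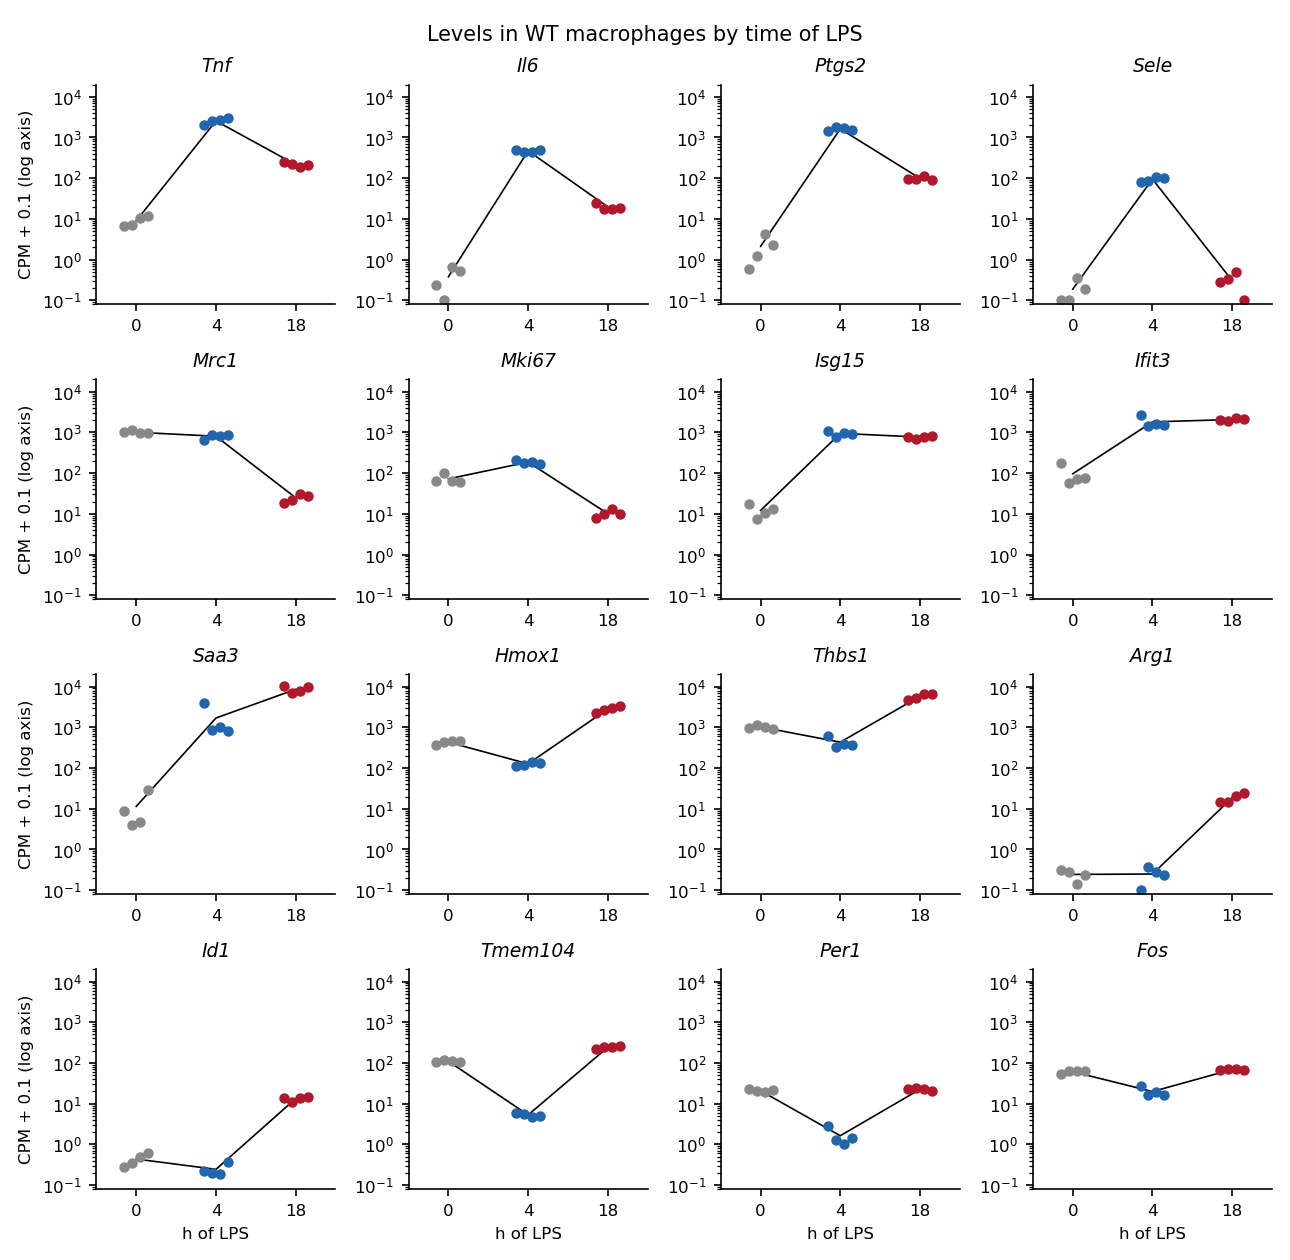
Levels of 16 genes in the 4 WT libraries at 0, 4 and 18 h of LPS, as CPM + 0.1 on a log axis, with a line through the means. Tnf, Il6, Ptgs2 and Sele peaked at 4 h, Isg15 and Ifit3 had about the same level at 18 h as at 4 h, and Arg1 and Id1 were near 0 until 18 h.

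Among genes of antigen presentation, the class Ib genes H2-Q6 and H2-Q7 were higher at 18 h and the transactivator Nlrc5 lower. Of 21 listed MHC class I and immunoproteasome genes, 11 were higher at 18 h (52.4%, against 37.2% of all genes) and 7 lower (33.3%, against 34.5%). Their median log2 fold change was 0.26. The class Ib genes H2-Q6 and H2-Q7 rose the most. H2-Q6 had 369, 391, 410.5 and 429 CPM at 18 h and 83.9, 32.6, 28 and 32.7 CPM at 4 h (log2 fold change 3.17, SE 0.28, edgeR adjusted p = 1.5e-09). H2-Q7 had 140.2, 132, 127 and 142 CPM at 18 h and 48.3, 19.1, 23.4 and 21.5 CPM at 4 h (log2 fold change 2.26, SE 0.22, edgeR adjusted p = 7.7e-09). Without library 1, the highest at 4 h in both, the log2 fold changes were 3.68 for H2-Q6 and 2.66 for H2-Q7. These 2 genes are close copies of each other, so the split of reads between them is uncertain. Nlrc5, the transactivator of class I genes, was lower, at 264 to 306 CPM at 18 h and 626 to 753 CPM at 4 h (log2 fold change -1.29, edgeR adjusted p = 1.8e-09), as was the peptide transporter subunit Tap1, at 472 to 536 CPM at 18 h and 905 to 1066 CPM at 4 h (log2 fold change -0.99, edgeR adjusted p = 7.2e-07). Of 11 tested class II genes, 4 were higher (36.4%, against 37.2% of all genes) and 3 lower (27.3%, against 34.5%). H2-Ab1, a class II beta chain, had 12.8, 10.4, 11.9 and 16.1 CPM at 18 h and 14.4, 7.5, 9.14 and 11 CPM at 4 h, which overlapped and were not called apart (log2 fold change 0.26, SE 0.2, edgeR adjusted p = 0.25). Cd74, the invariant chain, was at 51.2 to 67.8 CPM at 18 h and at 74.4 to 152 CPM at 4 h (log2 fold change -0.79, edgeR adjusted p = 0.00088). Lgmn, a lysosomal protease that cleaves it, was at 1512 to 1707 CPM at 18 h and at 1128 to 1283 CPM at 4 h (log2 fold change 0.41, edgeR adjusted p = 5.4e-05).

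Costimulatory and checkpoint ligands were mostly lower, with 14 of 19 tested genes lower, 4 higher and a median log2 fold change of -1.38. Cd83, a surface protein of mature dendritic cells, had 37.2, 28.1, 34.4 and 24.5 CPM at 18 h and 676, 1282, 1438 and 1300 CPM at 4 h (log2 fold change -5.24, SE 0.2, edgeR adjusted p = 1.2e-15). Cd40, the receptor of CD40 ligand, was chosen after its values were seen and had 100, 83.5, 97.7 and 101 CPM at 18 h and 2133, 2095, 2477 and 2560 CPM at 4 h (log2 fold change -4.60, SE 0.22, edgeR adjusted p = 4.5e-14). Tnfsf4, the ligand of OX40, was at 0.305 to 0.643 CPM at 18 h and at 13 to 26.1 CPM at 4 h (log2 fold change -5.44, edgeR adjusted p = 4.3e-13). The 18 h values were below every 4 h value in all 3, which the rule that chose Cd83 and Tnfsf4 required. Havcr2, the checkpoint receptor TIM-3, was higher at 18 h, at 6.22, 7.2, 11.1 and 10.1 CPM, against 4.18, 4.78, 5.58 and 4.79 CPM at 4 h (log2 fold change 0.83, SE 0.18, edgeR adjusted p = 0.00023). Its 0 h mean of 22.6 CPM lay above both times in LPS. Fscn1, an actin-bundling protein that is on the list of dendritic cell markers, was lower as well, with 20.7 to 34 CPM at 18 h and 177 to 302 CPM at 4 h (log2 fold change -3.36, edgeR adjusted p = 1e-10). The summed dendritic cell markers were at 575 to 786 CPM at 18 h and 456 to 522 CPM at 4 h. Bst2 alone gave 537 to 754 CPM of these sums at 18 h and 159 to 316 CPM at 4 h. The part of dendritic cells in these changes was not tested.

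Receptors and sensors of microbial products moved in both directions. Of 27 tested Toll-like receptors, adaptors and kinases, 11 were higher (40.7%, against 37.2% of all genes) and 13 lower (48.1%, against 34.5%). The other 3 were not called. Tlr2, the receptor of bacterial lipopeptides, was lower, at 96.1, 86.4, 76.3 and 86 CPM at 18 h and 249.8, 350.5, 413 and 458 CPM at 4 h (log2 fold change -2.09, SE 0.13, edgeR adjusted p = 3.3e-12). Its partner Tlr6 was at 23.7 to 26 CPM at 18 h and at 85.5 to 94.7 CPM at 4 h (log2 fold change -1.84, edgeR adjusted p = 1.9e-15). Tlr13, a mouse receptor of bacterial ribosomal RNA, was higher, at 337, 369, 429.8 and 391 CPM at 18 h and 41.2, 36, 37.4 and 34.1 CPM at 4 h (log2 fold change 3.36, SE 0.099, edgeR adjusted p = 3.2e-17), back above its 0 h mean of 270.4 CPM. Traf3, a signalling adaptor of the TRIF branch, was at 36.9 to 44.3 CPM at 18 h and at 9.71 to 12.3 CPM at 4 h (log2 fold change 1.83, edgeR adjusted p = 3.3e-12). Of 24 inflammasome and lytic cell death genes, 13 were lower (54.2%, against 34.5% of all genes) and 7 higher (29.2%, against 37.2%). Nlrp3, the sensor of the best-known inflammasome, had 172, 148, 142 and 166 CPM at 18 h and 941, 1021, 1140 and 1120 CPM at 4 h (log2 fold change -2.75, SE 0.089, edgeR adjusted p = 1.3e-16). The DNA sensor Aim2 had 87.5, 84.1, 88.6 and 81.9 CPM at 18 h and 298, 279, 289 and 274 CPM at 4 h (log2 fold change -1.74, SE 0.13, edgeR adjusted p = 1e-10). Both fell in every 18 h library, which the rule that chose them required. Nlrc4, an adaptor for flagellin sensing, was higher, at 26.9 to 28.4 CPM at 18 h and 3.02 to 7.56 CPM at 4 h (log2 fold change 2.59, edgeR adjusted p = 5.1e-11), as was Nlrp1a, at 10.1 to 11.6 CPM at 18 h and 2.19 to 4.41 CPM at 4 h (log2 fold change 1.64, edgeR adjusted p = 4e-09). The 0 h means were 15.4 CPM for Nlrc4 and 8.52 CPM for Nlrp1a.

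**Figure D3:**
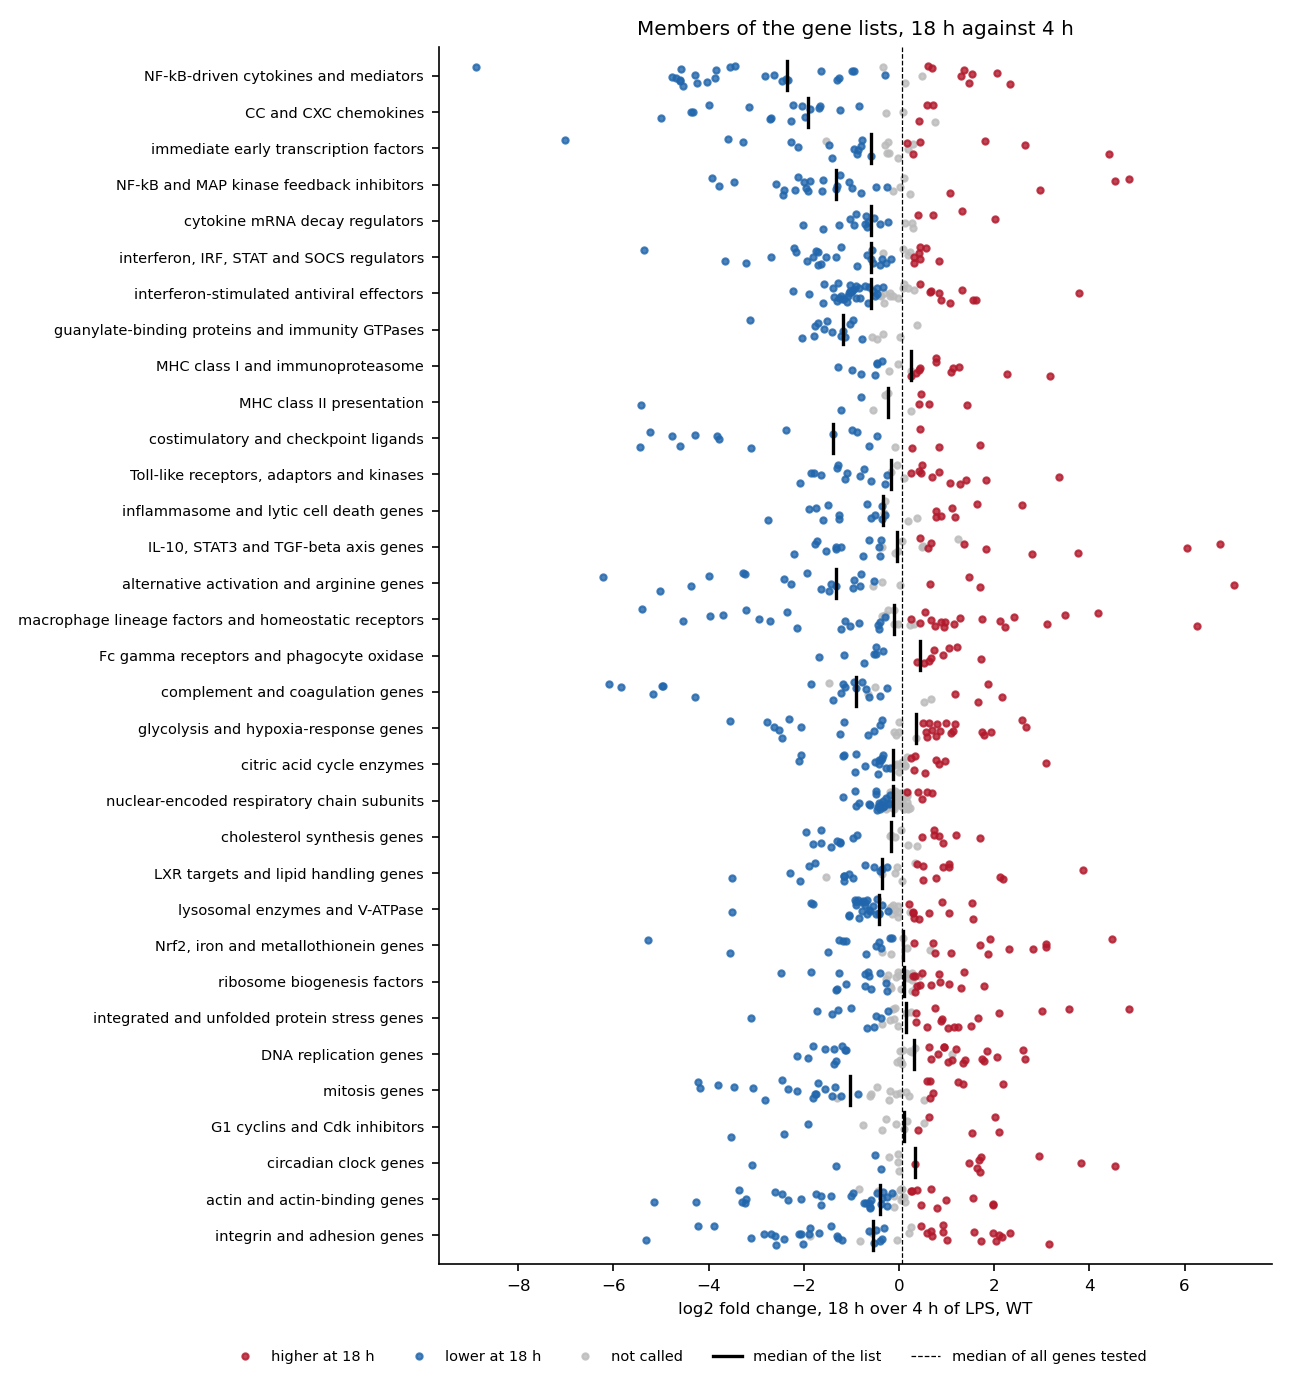
Log2 fold change of 18 h over 4 h for each tested member of the gene lists in WT macrophages, coloured by the call at an adjusted p under 0.05, with the list's median as a bar and the median of all genes tested (0.06) as a dashed line. The medians ran from -2.36 for NF-kB-driven cytokines and mediators to 0.45 for Fc gamma receptors and the phagocyte oxidase.

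Some genes were not raised at 4 h and stood well above their 0 h level at 18 h. The rule for these newly raised genes took a 4 h mean of no more than 1.5 times that of 0 h, which admits genes that had dipped at 4 h, and since it used the levels at the 3 times they are described by those levels. Arg1, the arginase that turns arginine into ornithine and urea, at chr10:24915207-24927470, had 14.9, 14.2, 20.5 and 24.4 CPM at 18 h and 0, 0.281, 0.183 and 0.134 CPM at 4 h, with a 0 h mean of 0.145 CPM. Its 4 h and 0 h libraries held only a few reads each. Id1, an inhibitor of basic helix-loop-helix factors, had 13.5, 11.2, 13.4 and 14.7 CPM at 18 h and 0.123, 0.0938, 0.0914 and 0.269 CPM at 4 h, with a log2 fold change of 6.27 (6.87 without library 4 at 4 h). Arhgap27, a GTPase-activating protein, had 141, 144, 135 and 144 CPM at 18 h and 4.06, 1.5, 1.92 and 1.39 CPM at 4 h, with a 0 h mean of 14.8 CPM, so that it was below 0 h at 4 h and above it at 18 h. Gpr35, a G protein-coupled receptor, had 75.5, 76.6, 99.9 and 92.1 CPM at 18 h and 4.67, 1.78, 1.83 and 1.03 CPM at 4 h, with a log2 fold change of 5.21 (5.90 without library 1 at 4 h) and a 0 h mean of 13.6 CPM. Rims3, best known at synapses, was at 21.6 to 29.9 CPM at 18 h and at 0.0914 to 0.615 CPM at 4 h. The serotonin receptor gene Htr2b was at 9.9 to 13.8 CPM at 18 h and at 0.183 to 0.582 CPM at 4 h. Stra6l, a retinol transporter, was at 26.4 to 31.9 CPM at 18 h and at 0.0938 to 1.6 CPM at 4 h, and Dmwd was at 19.6 to 23.9 CPM at 18 h and at 0.582 to 1.1 CPM at 4 h. The 0 h means were 1.78 CPM for Rims3, 2.01 CPM for Htr2b, 1.4 CPM for Stra6l and 1.98 CPM for Dmwd. The rise from 4 h to 18 h in Arhgap27, Gpr35, Rims3, Htr2b and Dmwd therefore includes a return from a 4 h level below that of 0 h.

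Genes of the IL-10, STAT3 and TGF-beta axis moved in both directions, near the shares over all genes. Of 28 listed, 9 were higher (32.1%, against 37.2% of all genes) and 12 lower (42.9%, against 34.5%). The other 7 were not called, and the median log2 fold change was -0.05. Smad3, the transcription factor that carries TGF-beta signals, had 72.8, 75.5, 74.9 and 78 CPM at 18 h and 0.738, 1.97, 0.731 and 1.21 CPM at 4 h (log2 fold change 6.05, SE 0.17, edgeR adjusted p = 2.1e-17), with a 0 h mean of 30.7 CPM. Thbs1, thrombospondin, which activates latent TGF-beta, had 4640, 5303, 6498 and 6727 CPM at 18 h and 623, 335, 400.3 and 369 CPM at 4 h (log2 fold change 3.75, SE 0.19, edgeR adjusted p = 1.3e-13). Both were clear of their 4 h libraries, which the rule that chose them required. Etv3, a repressor induced by IL-10, was lower, at 153 to 203 CPM at 18 h and 514 to 662 CPM at 4 h (log2 fold change -1.77, edgeR adjusted p = 1.6e-12). Il21r, the IL-21 receptor, was chosen after its values were seen and was at 103 to 119 CPM at 18 h and at 12.1 to 22.2 CPM at 4 h (log2 fold change 2.80, edgeR adjusted p = 3.3e-14).

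Other genes were raised at 4 h and back near the 0 h level at 18 h. By rule, these transient genes were chosen on their levels at the 3 times. Asap3, a GTPase-activating protein of ARF proteins, had 0.183, 0.391, 0.161 and 0.113 CPM at 18 h and 98.8, 68.2, 68 and 77.9 CPM at 4 h, with a log2 fold change of -8.34 (-8.96 without library 2 at 18 h). Fst, which encodes the activin-binding protein follistatin, had 0.061, 0.0391, 0 and 0.113 CPM at 18 h and 23.8, 9.28, 11.6 and 8.51 CPM at 4 h, with a 0 h mean of 0.0562 CPM. Gfi1, a transcriptional repressor of myeloid and lymphoid cells, had 0.122, 0.196, 0.322 and 0.17 CPM at 18 h and 41.2, 23.2, 16.3 and 20.1 CPM at 4 h. Every 18 h library of these 3 genes was below 1 CPM, while no 4 h library was below 8.51 CPM. Lck, a tyrosine kinase best known in T cells, was at 0.0783 to 0.322 CPM at 18 h and at 14.2 to 26.7 CPM at 4 h. The markers of T, NK and B cells summed to 4.39 to 6.69 CPM at 18 h and 10.1 to 19.8 CPM at 4 h. Of the 4 h sums Cd4 alone gave 8.44 to 17.5 CPM, and 5 members, among them Cd3d and Cd8a, had no count at 4 h. At 0 h the sums were 19.4 to 25.4 CPM, while Lck averaged 0.111 CPM. The part of such cells in the Lck level was not tested. Apol7c, an apolipoprotein L gene, was at 0.227 to 0.488 CPM at 18 h and at 40.7 to 51.5 CPM at 4 h. Tmem200b had no read in 3 of the 18 h libraries and 0.322 CPM in the other, against 8.54 to 15.1 CPM at 4 h, and its fitted log2 fold change of -7.54 became -10.75 without that library, which depends on the prior count. Among the other large falls, Cnn3, an actin-binding calponin, had 0.977, 1.21, 3.62 and 1.93 CPM at 18 h and 199.8, 289, 320.1 and 293 CPM at 4 h (log2 fold change -7.26, SE 0.44, edgeR adjusted p = 3.1e-12). Rras2, a small GTPase, was at 0.244 to 0.548 CPM at 18 h and at 31.7 to 48.1 CPM at 4 h (log2 fold change -6.63, edgeR adjusted p = 9.8e-15).

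A further set was low at 4 h and, by a rule on levels, within 1.5 times its 0 h mean at 18 h. Inpp5d, the phosphatase SHIP1, which limits phosphoinositide signalling, averaged 268, 15 and 366 CPM at 0, 4 and 18 h. Hdac5, a histone deacetylase, averaged 52, 2.66 and 47.4 CPM at the same times. Castor2, a relative of the arginine sensor of mTORC1, averaged 44.5, 2.92 and 46 CPM. The 4 h libraries of these genes were all below both other times. Nbeal2, Snx24, Ccdc125, Kif21b and Narf, chosen by the same rule, had 0 h means of 23.4, 23.8, 9.28, 42 and 39.5 CPM, 4 h means of 1.09, 1.17, 0.265, 1.86 and 1.72 CPM and 18 h means of 34.4, 28.2, 12.9, 33 and 28.3 CPM. Other large rises were also from a low 4 h level but did not end near that of 0 h. Tmem104, a transmembrane protein, averaged 109.9, 5.19 and 243 CPM at 0, 4 and 18 h, with 217, 248, 248 and 258 CPM in the 18 h libraries and 5.66, 5.53, 4.66 and 4.93 CPM in the 4 h libraries (log2 fold change 5.54, SE 0.095, edgeR adjusted p = 2.2e-20), and ended above 0 h. Irf2bp2, a corepressor, averaged 120.5, 1.48 and 51.3 CPM (log2 fold change 5.16, edgeR adjusted p = 1.3e-14) and ended below it. Plekhg3 averaged 36.5, 0.304 and 19.1 CPM, with a log2 fold change of 18 h over 4 h of 6.12 (6.83 without library 2 at 4 h). Tmem86a averaged 72.4, 0.974 and 42.7 CPM, with 5.33, and both were lower at 18 h than at 0 h.

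Some circadian clock genes were also low at 4 h. Of 17 tested, 9 were higher at 18 h (52.9%, against 37.2% of all genes) and 4 lower (23.5%, against 34.5%). Their median log2 fold change was 0.33. Per1, a repressor of the clock, had 22.6, 24.4, 22.3 and 20.4 CPM at 18 h and 2.71, 1.22, 0.914 and 1.3 CPM at 4 h (log2 fold change 3.82, SE 0.21, edgeR adjusted p = 4.4e-13), with a 0 h mean of 20.7 CPM. Tef, an output factor of the clock, had 22.8, 24.3, 22.3 and 22.4 CPM at 18 h and 3.69, 3.09, 2.47 and 2.64 CPM at 4 h (log2 fold change 2.95, SE 0.13, edgeR adjusted p = 1.4e-14). The 18 h libraries of both lay above all of 4 h, which the rule that chose them required. Tef averaged 58.35 CPM at 0 h, above both times in LPS. Nfil3, which competes with Tef for its sites, was lower, at 14.6 to 18.5 CPM at 18 h and 36.8 to 46.7 CPM at 4 h (log2 fold change -1.32, edgeR adjusted p = 5e-09), as was Cry1, at 7.16 to 9.7 CPM at 18 h and 11.2 to 12.8 CPM at 4 h (log2 fold change -0.50, edgeR adjusted p = 0.00091). The clock time at which cells were lysed is not given in the labels, so hours in LPS and time of day cannot be told apart.

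Genes of alternatively activated macrophages were mostly lower at 18 h. Of 25 tested genes of alternative activation and arginine use, 18 were lower at 18 h and 4 higher, with a median log2 fold change of -1.33. Mrc1, the mannose receptor CD206, at chr2:14229414-14332023, had 18.8, 21.7, 31.1 and 27.5 CPM at 18 h and 659, 886, 829.9 and 843 CPM at 4 h (log2 fold change -5.03, SE 0.16, edgeR adjusted p = 9.7e-17), and a 0 h mean of 1009 CPM. Clec10a, a galactose-type lectin, had 0.244, 0.274, 0.241 and 0.34 CPM at 18 h and 25.3, 18.3, 21.3 and 19.6 CPM at 4 h (log2 fold change -6.22, SE 0.23, edgeR adjusted p = 8.9e-16). Every 18 h library lay below those of 4 h in both genes, which the rule that chose them required. The 4 h mean of Mrc1, 804 CPM, was near that of 0 h. Arg1 was the largest rise of the list, and Ass1, which rebuilds arginine from citrulline, was at 64.3 to 80.1 CPM at 18 h and at 15.6 to 45.6 CPM at 4 h (log2 fold change 1.48, edgeR adjusted p = 6.6e-06). Gas6, a bridging ligand for the uptake of dead cells, had 19, 22.5, 19.8 and 19 CPM at 18 h and 253, 255, 269 and 267 CPM at 4 h (log2 fold change -3.70, SE 0.09, edgeR adjusted p = 2.9e-18). Its receptor Mertk was at 158 to 205 CPM at 18 h and at 729 to 910.1 CPM at 4 h (log2 fold change -2.14, edgeR adjusted p = 5.4e-15).

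Of 43 tested lineage factors and homeostatic receptors, 18 were higher (41.9%, against 37.2% of all genes) and 17 lower (39.5%, against 34.5%). Csf1r, the receptor of M-CSF, had 734, 732, 684 and 782 CPM at 18 h and 1925, 1502, 1758 and 1682 CPM at 4 h (log2 fold change -1.23, SE 0.084, edgeR adjusted p = 2.5e-11), against a 0 h mean of 2647 CPM. Tfec, a transcription factor of the MiT family, had 9.21, 11, 15 and 12.1 CPM at 18 h and 309.8, 241, 269 and 262 CPM at 4 h (log2 fold change -4.53, SE 0.15, edgeR adjusted p = 1.2e-16). Siglece, an inhibitory sialic acid receptor, rose, at 214, 194, 144 and 168 CPM at 18 h and 12.3, 10.2, 7.86 and 9.36 CPM at 4 h (log2 fold change 4.17, SE 0.21, edgeR adjusted p = 1.4e-13). All 3 were clear of overlap, which the rule that chose Tfec and Siglece required. Gprc5c and B3gnt7, an orphan receptor and a glycosyltransferase, were among the largest falls, with 0 to 0.322 CPM at 18 h and 15.6 to 26 CPM at 4 h for Gprc5c and 0.0391 to 0.17 CPM at 18 h and 7.99 to 26.9 CPM at 4 h for B3gnt7. Their log2 fold changes were -7.47 (-8.15 without library 3 at 18 h) and -7.68. Marco, a scavenger receptor chosen after its values were seen, was at 323 to 467 CPM at 18 h and at 52.4 to 123 CPM at 4 h (log2 fold change 2.42, edgeR adjusted p = 1e-05).

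All 16 Fc gamma receptor and phagocyte oxidase genes were called. At 18 h 9 were higher (56.2%, against 37.2% of all genes) and 7 lower (43.8%, against 34.5%), with a median log2 fold change of 0.45. Itgam, the integrin CD11b of complement receptor 3, had 2213, 2208, 2258 and 2329 CPM at 18 h and 877, 621, 641 and 584 CPM at 4 h (log2 fold change 1.73, SE 0.1, edgeR adjusted p = 2.2e-12). Fcgr2b, the inhibitory Fc receptor, was lower, at 608 to 731 CPM at 18 h and 1331 to 1867 CPM at 4 h (log2 fold change -1.15, edgeR adjusted p = 2.4e-06), as was the integrin Itgax, at 4.7 to 7.36 CPM at 18 h and 12.9 to 25.8 CPM at 4 h (log2 fold change -1.68, edgeR adjusted p = 6.6e-07). Of 27 complement and coagulation genes, 18 were lower and 4 higher. The complement activator Cfb was higher, at 1137, 969, 1028 and 1193 CPM at 18 h and 632, 179.5, 202 and 174 CPM at 4 h (log2 fold change 1.86, SE 0.34, edgeR adjusted p = 4.6e-05), and 2.55 without the high library 1 at 4 h. C5ar2, a receptor of C5a, was at 8.61 to 10.5 CPM at 18 h and at 1.59 to 2.47 CPM at 4 h (log2 fold change 2.17, edgeR adjusted p = 4.3e-13). Its 0 h mean of 16.6 CPM lay above both times in LPS.

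Genes of carbon metabolism moved in both directions. Of 35 glycolysis and hypoxia-response genes, 17 were higher at 18 h (48.6%, against 37.2% of all genes) and 13 lower (37.1%, against 34.5%). Their median log2 fold change was 0.36. Pkm, the pyruvate kinase, had 2054, 2141, 2273 and 2480 CPM at 18 h and 642, 573, 564 and 557 CPM at 4 h (log2 fold change 1.94, SE 0.085, edgeR adjusted p = 1.4e-14). Aldoa, an aldolase chosen after its values were seen, was at 986 to 1134 CPM at 18 h and at 465 to 519 CPM at 4 h (log2 fold change 1.09, edgeR adjusted p = 3.5e-11). Slc16a1, the lactate transporter MCT1, was lower, at 4.27, 2.9, 4.58 and 4.36 CPM at 18 h and 61.9, 36.3, 42.3 and 43.4 CPM at 4 h (log2 fold change -3.55, SE 0.18, edgeR adjusted p = 1.8e-13), as was Pfkp, a phosphofructokinase, at 44.3 to 49.9 CPM at 18 h and 273 to 306 CPM at 4 h (log2 fold change -2.63, edgeR adjusted p = 1.3e-17). Pfkfb4, which sets the level of a glycolytic activator, was at 24.1 to 26.7 CPM at 18 h and at 6.32 to 8.41 CPM at 4 h (log2 fold change 1.75, edgeR adjusted p = 7.1e-11). At 0 h it averaged 37.1 CPM. Of 32 citric acid cycle genes, 16 were lower (50%, against 34.5% of all genes) and 8 higher (25%, against 37.2%). With upper-quartile scaling 14 were higher. Idh2, the mitochondrial isocitrate dehydrogenase, had 7.02, 7.51, 6.68 and 7.76 CPM at 18 h and 28.4, 33.7, 31.8 and 31.8 CPM at 4 h (log2 fold change -2.11, SE 0.11, edgeR adjusted p = 1.2e-13). Sdhb, a succinate dehydrogenase subunit, was at 79.8 to 97.2 CPM at 18 h and at 40.4 to 52.2 CPM at 4 h (log2 fold change 0.96, edgeR adjusted p = 2.6e-08). Mdh2 was at 84.6 to 102 CPM at 18 h and at 49.5 to 57.7 CPM at 4 h (log2 fold change 0.78, edgeR adjusted p = 9.5e-07).

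The nuclear-encoded subunits of the respiratory chain were mostly not called. Of 64, 38 were not called, 21 were lower (32.8%, against 34.5% of all genes) and 5 higher (7.81%, against 37.2%). Their median log2 fold change was -0.13. These counts depend on the scaling, with 16 higher and 12 lower by upper-quartile factors and 4 higher and 27 lower by median-of-ratios factors. Uqcrfs1, the iron-sulfur subunit of complex III, was at 22.4 to 28.3 CPM at 18 h and at 50.8 to 62.9 CPM at 4 h (log2 fold change -1.18, edgeR adjusted p = 2.8e-09). Atp5a1, a subunit of ATP synthase, was at 301 to 329 CPM at 18 h and at 537 to 661 CPM at 4 h (log2 fold change -0.92, edgeR adjusted p = 2.3e-10). Ndufb9 and Ndufs7, both of complex I, were higher, with log2 fold changes of 0.69 and 0.59.

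In lipid metabolism, 10 of 23 tested cholesterol synthesis genes were lower (43.5%) and 7 higher (30.4%), near the shares over all genes. Fdft1, squalene synthase, was at 38.7 to 51.3 CPM at 18 h and at 144 to 161 CPM at 4 h (log2 fold change -1.81, edgeR adjusted p = 4.9e-13). Idi1, an isomerase of the isoprenoid units, was at 4.93 to 7.45 CPM at 18 h and at 14.3 to 45.1 CPM at 4 h (log2 fold change -1.95, edgeR adjusted p = 6e-06). Lss, lanosterol synthase, and Dhcr7, a late enzyme, were higher, with log2 fold changes of 1.71 and 0.93. Their 18 h means were 8.68 and 7.54 CPM, against 0 h means of 6.545 and 14.7 CPM. Of 31 genes of LXR and lipid handling, 15 were lower (48.4%, against 34.5% of all genes) and 10 higher (32.3%, against 37.2%). The nuclear receptor genes Rxra and Nr1h3 were higher at 18 h than at 4 h. Rxra had 87.5, 101, 94.5 and 92.4 CPM at 18 h and 4.55, 6.75, 7.22 and 7.39 CPM at 4 h (log2 fold change 3.86, SE 0.13, edgeR adjusted p = 1.5e-16). Its 0 h mean was 112 CPM, so that it ended slightly below 0 h after a low 4 h level, while Nr1h3 ended above its 0 h mean of 7.51 CPM. Nr1h3, which encodes LXR alpha, had 91.4, 106, 93.4 and 96.1 CPM at 18 h and 15.6, 23, 20.7 and 26 CPM at 4 h (log2 fold change 2.18, SE 0.17, edgeR adjusted p = 1.6e-10). Both sets stood apart without overlap, which the rule that chose these 2 genes required. The fatty acid carrier Fabp4 fell, with 2.62 to 6.27 CPM at 18 h and 36 to 55.2 CPM at 4 h (log2 fold change -3.52, edgeR adjusted p = 5e-12), as did the lipid transporter gene Abca9, with 3.22 to 5 CPM at 18 h and 10.3 to 21.9 CPM at 4 h (log2 fold change -2.09, edgeR adjusted p = 3e-09). Of 45 lysosomal genes, 26 were lower and 10 higher, with a median log2 fold change of -0.43. Hexa, a subunit of hexosaminidase, was at 243 to 259 CPM at 18 h and at 856 to 920.1 CPM at 4 h (log2 fold change -1.85, edgeR adjusted p = 2.1e-16). The proton pump subunit Atp6v0d2 was at 4.21 to 9.23 CPM at 18 h and at 35.4 to 99.8 CPM at 4 h (log2 fold change -3.50, edgeR adjusted p = 9.9e-11). Neu1, a sialidase, and Gla, a galactosidase, were higher, with log2 fold changes of 1.53 and 1.06. At 0 h Neu1 averaged 62.8 CPM, near its 18 h mean of 63 CPM. Gla averaged 134 CPM at 0 h and 350.5 CPM at 18 h.

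Hmox1, Fth1 and Slc40a1, of heme and iron handling, rose while the metallothioneins Mt1 and Mt2 fell. Of 29 tested Nrf2, iron and metallothionein genes, 12 were higher and 12 lower (41.4% each), near the shares over all genes. Hmox1, heme oxygenase, which frees iron from heme, at chr8:75093618-75100593, had 2286, 2660, 2937 and 3412 CPM at 18 h and 110.1, 122, 140.3 and 135 CPM at 4 h (log2 fold change 4.48, SE 0.13, edgeR adjusted p = 3.4e-17), with a 0 h mean of 432 CPM. Fth1, the ferritin heavy chain, was chosen after its values were seen and had 28527, 29887, 28769 and 31314 CPM at 18 h and 10586, 8660, 8616 and 8283 CPM at 4 h (log2 fold change 1.71, SE 0.091, edgeR adjusted p = 3.7e-13). The iron exporter Slc40a1 had 139.8, 162, 204 and 169 CPM at 18 h and 12, 25.8, 17 and 24.9 CPM at 4 h (log2 fold change 3.08, SE 0.19, edgeR adjusted p = 5e-12), still below its 0 h mean of 851 CPM. All 18 h libraries exceeded those of 4 h in these 3 genes, which the rule that chose Hmox1 and Slc40a1 required. Mt2, a metal-binding metallothionein, was at 2.2, 3.21, 4.02 and 3.62 CPM at 18 h and 118, 127, 122 and 136 CPM at 4 h (log2 fold change -5.28, SE 0.14, edgeR adjusted p = 5.7e-18). Mt1 was at 7.63, 8.65, 8.93 and 10.8 CPM at 18 h and 104, 112, 104 and 106 CPM at 4 h (log2 fold change -3.56, SE 0.13, edgeR adjusted p = 4.4e-16).

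Of 33 tested genes of the integrated and unfolded protein stress responses, 15 were higher (45.5%, against 37.2% of all genes) and 10 lower (30.3%, against 34.5%). Their median log2 fold change was 0.15. Ddit3, the stress factor CHOP, had 69.5, 74.3, 91.3 and 79.7 CPM at 18 h and 8.61, 5.91, 4.75 and 6.58 CPM at 4 h (log2 fold change 3.58, SE 0.17, edgeR adjusted p = 5.6e-14). Sesn2, a leucine sensor, was at 15.3 to 22.2 CPM at 18 h and at 2.28 to 3.28 CPM at 4 h (log2 fold change 3.00, edgeR adjusted p = 6.3e-12). Its 0 h mean was 17.6 CPM. Ppp1r15a, the phosphatase subunit GADD34 that ends the same response, was lower, at 21.5, 23.9, 24.6 and 24.9 CPM at 18 h and 213, 204, 204 and 197 CPM at 4 h (log2 fold change -3.11, SE 0.084, edgeR adjusted p = 8.7e-18). Wars, a tryptophanyl-tRNA synthetase, was at 59.6 to 63.5 CPM at 18 h and at 190.2 to 214 CPM at 4 h (log2 fold change -1.72, edgeR adjusted p = 6e-14). Of 44 ribosome biogenesis factors, 13 were higher (29.5%) and 14 lower (31.8%), near the shares over all genes, with 20 higher under upper-quartile scaling. Rrs1 and Wdr43 were lower, with log2 fold changes of -2.48 and -1.86, and Utp4 and Heatr1 were higher, with 1.36 and 0.86. Utp4 averaged 12.1 CPM at 0 h and 16.35 CPM at 18 h. Heatr1 averaged 46.1 CPM at 0 h and 35.1 CPM at 18 h.

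Several genes of mitosis were lower at 18 h. Of 36 mitosis genes, 18 were lower at 18 h (50%, against 34.5% of all genes) and 7 higher (19.4%, against 37.2%). Their median log2 fold change was -1.04. Mki67, a marker of cycling cells, had 7.69, 9.78, 12.8 and 9.74 CPM at 18 h and 209.9, 176, 189.7 and 170.1 CPM at 4 h (log2 fold change -4.23, SE 0.16, edgeR adjusted p = 1.5e-15), with a 0 h mean of 72.3 CPM, and Cenpa, the centromeric histone, was at 1.6 to 2.65 CPM at 18 h and at 5.9 to 14.2 CPM at 4 h (log2 fold change -2.46, edgeR adjusted p = 1.2e-08). Cdk1, the mitotic kinase, was slightly higher, at 7.45, 6.69, 7.32 and 7.82 CPM at 18 h and 3.87, 4.88, 3.66 and 5.96 CPM at 4 h (log2 fold change 0.65, SE 0.14, edgeR adjusted p = 0.00038). Cdk1 had a 0 h mean of 16 CPM, above both times in LPS. Of 36 DNA replication genes, 16 were higher (44.4%, against 37.2% of all genes) and 10 lower (27.8%, against 34.5%). E2f1, an activator of replication genes, was at 15 to 16.9 CPM at 18 h and at 4.08 to 5.06 CPM at 4 h (log2 fold change 1.84, edgeR adjusted p = 7.8e-13), while its repressive relative E2f8 was at 11.4 to 12.7 CPM at 18 h and at 47.1 to 56.6 CPM at 4 h (log2 fold change -2.14, edgeR adjusted p = 3.7e-14). The 0 h mean of E2f1 was 17.5 CPM, so its rise followed a low 4 h level. The clamp loader subunit Rfc3 was lower (log2 fold change -1.55, edgeR adjusted p = 4.4e-10).

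Of 15 tested G1 cyclins and Cdk inhibitors, 5 were higher (33.3%, against 37.2% of all genes) and 3 lower (20%, against 34.5%). Neither share exceeded that over all genes. Without library 4 at 4 h, 5 were lower. Cdkn1a, the inhibitor p21, had 223, 273, 283 and 297 CPM at 18 h and 2409, 3280, 3400 and 3360 CPM at 4 h (log2 fold change -3.53, SE 0.12, edgeR adjusted p = 3.5e-16). Cyclin D genes went apart. Ccnd1 had 215, 239, 271 and 241 CPM at 18 h and 55.8, 56.8, 55.9 and 57.1 CPM at 4 h (log2 fold change 2.1, SE 0.078, edgeR adjusted p = 8.9e-16). Ccnd2 had 118, 123, 134 and 128 CPM at 18 h and 676, 649.8, 681 and 669 CPM at 4 h (log2 fold change -2.41, SE 0.12, edgeR adjusted p = 1.2e-13). Ccnd3 was at 36.8 to 45.6 CPM at 18 h and at 8.69 to 12.1 CPM at 4 h (log2 fold change 2.02, edgeR adjusted p = 1.3e-11).

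Cytoskeletal and adhesion genes were mostly lower at 18 h. Of 50 actin and actin-binding genes, 29 were lower and 10 higher, with a median log2 fold change of -0.41. Rnd3, a GTPase that opposes RhoA, had 12.3, 10.2, 11.7 and 13.5 CPM at 18 h and 450.5, 398, 426 and 419.7 CPM at 4 h (log2 fold change -5.15, SE 0.095, edgeR adjusted p = 5.1e-20). Actn1, an actin crosslinker, had 15.5, 19.4, 17.6 and 21.9 CPM at 18 h and 243, 386, 407 and 408 CPM at 4 h (log2 fold change -4.27, SE 0.18, edgeR adjusted p = 8.3e-15). Coro1a and Coro1c, coronins that remodel actin filaments, were higher, with 185 to 251 CPM at 18 h and 43.1 to 78.2 CPM at 4 h for Coro1a and 266 to 286 CPM at 18 h and 61 to 79.8 CPM at 4 h for Coro1c. None of these 4 genes had overlapping libraries, which the rule that chose them required. The 0 h means were 133 CPM for Coro1a and 265 CPM for Coro1c. Of 46 tested integrin and adhesion genes, 25 were lower (54.3%, against 34.5% of all genes) and 15 higher (32.6%, against 37.2%). Their median log2 fold change was -0.54. Sdc4, the heparan sulfate proteoglycan syndecan-4, had 360.2, 317, 359.7 and 360.3 CPM at 18 h and 6525, 6222, 7121 and 6409 CPM at 4 h (log2 fold change -4.23, SE 0.083, edgeR adjusted p = 9.6e-20). Itgb8, an integrin subunit that activates TGF-beta, had 0.61, 0.744, 0.724 and 0.453 CPM at 18 h and 5.59, 34.4, 31.4 and 31.8 CPM at 4 h (log2 fold change -5.32, SE 0.48, edgeR adjusted p = 2.1e-09), with library 1 the lowest at 4 h. Adam8, a membrane metalloproteinase, rose to 1729, 1640, 1843 and 2027 CPM at 18 h, against 325, 348, 372 and 392 CPM at 4 h (log2 fold change 2.33, SE 0.11, edgeR adjusted p = 2.9e-14). Pecam1, the adhesion molecule CD31, was at 28.9 to 37.3 CPM at 18 h and at 2.91 to 4.18 CPM at 4 h (log2 fold change 3.16, edgeR adjusted p = 2.1e-15). Mmp9, a gelatinase secreted for matrix breakdown, had 4.64, 6.18, 4.34 and 4.93 CPM at 18 h and 11.6, 22.1, 7.95 and 12.9 CPM at 4 h (log2 fold change -1.42, SE 0.33, edgeR adjusted p = 0.00073).

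Markers of the labelled cell type were present at both times. All 12 macrophage markers had counts, and they summed to 16164 to 17942 CPM at 18 h and 22411 to 27994 CPM at 4 h, with 7 markers lower and 4 higher. Lyz2, lysozyme, was at 3704, 2921, 2978 and 3820 CPM at 18 h and 13933, 10542, 11760 and 12003 CPM at 4 h (log2 fold change -1.85, SE 0.1, edgeR adjusted p = 5.9e-13). Aif1, the calcium-binding protein IBA1, was higher (log2 fold change 1.45, edgeR adjusted p = 5.3e-07). Neutrophil markers summed to 191 to 277 CPM at 18 h and 98.7 to 150 CPM at 4 h, sums that include Lcn2. Elane, Mpo and Ctsg had no count at either time, and Ngp and S100a9 were lower at 18 h, with log2 fold changes of -1.03 and -0.97. Within the dendritic cell list Bst2 was higher, with 537 to 754 CPM at 18 h and 159 to 316 CPM at 4 h (log2 fold change 1.56, edgeR adjusted p = 1.3e-07), as was Xcr1 (log2 fold change 1.39, edgeR adjusted p = 1.2e-06), and 4 of 7 tested markers were lower. In the lists of other cells, Pdgfrb (-3.57), Cd4 (-2.22) and Pf4 (-1.67) were lower at 18 h and Ccr3 (0.82) higher, and their part in the results above was not tested. Stromal markers summed to 18.7 to 72.6 CPM at 18 h and 20.7 to 97.9 CPM at 4 h, and of 14 tested 1 was higher and 1 lower. Hemoglobin genes Hba-a1, Hbb-bs and Hbb-bt had no count in the libraries of either time.

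The same 2 times were also sampled in cells labelled Nur77-KO, with 3 libraries each, and the difference between the WT change and the change in the libraries labelled KO was tested in the same fit. It was called at 1358 genes (10.8%), of which 574 (4.58%) had the higher value in WT and 784 (6.26%) the lower. Without library 2 at 4 h labelled KO the counts were 361 and 510. Several mediators fell further in WT. Il6 was at 24.7, 17.9, 17.5 and 18.6 CPM at 18 h in WT and at 80.8, 99.8 and 59.5 CPM in the libraries labelled KO, with 4 h means of 469.5 CPM in WT and 447 CPM in those labelled KO (difference in log2 fold change -2.09, edgeR adjusted p = 0.00018). Nos2 was at 105, 123, 170.0 and 171 CPM at 18 h in WT and at 716, 552 and 900.5 CPM in the libraries labelled KO, with 4 h means of 781 and 867 CPM (difference in log2 fold change -2.20, edgeR adjusted p = 0.0012, not passed by DESeq2 with -2.22). Ptgs2 was at 96.7, 96.3, 114 and 88.4 CPM at 18 h in WT and at 494, 559 and 447 CPM in those labelled KO, with 4 h means of 1626 and 1718 CPM (difference in log2 fold change -2.26, edgeR adjusted p = 0.00093). The WT libraries lay below those labelled KO at 18 h in all 3 genes, while the 4 h means were close. Il1b fell in WT, with a log2 fold change of -1.26, against 0.06 in the libraries labelled KO (difference in log2 fold change -1.32, edgeR adjusted p = 0.005). Zfp36 fell in WT (-0.53), against 0.33 in those labelled KO (difference in log2 fold change -0.86, edgeR adjusted p = 3.4e-05). Thbs1 had a log2 fold change of 3.75 in WT and 5.10 in those labelled KO (difference in log2 fold change -1.36, edgeR adjusted p = 0.0018).

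The opposite sign was seen in other genes. Slc16a1 fell by less in WT, with a log2 fold change of -3.55, against -5.40 in the libraries labelled KO, whose 4 h mean was 287 CPM, against 46 CPM in WT (difference in log2 fold change 1.85, edgeR adjusted p = 0.00023). Idh2 had a log2 fold change of -2.11 in WT and -3.36 in those labelled KO (difference in log2 fold change 1.25, edgeR adjusted p = 0.00018). Utp4, a factor of ribosomal RNA processing, rose in WT (1.36), against 0.23 in those labelled KO (difference in log2 fold change 1.13, edgeR adjusted p = 0.00029). Dhcr7 rose in WT (0.93), against -0.34 in those labelled KO (difference in log2 fold change 1.28, edgeR adjusted p = 0.0086, and 1.07 with an adjusted p of 0.05 without library 4 at 4 h labelled KO). Tnf (0.19), Arg1 (0.79), Sele (-0.15), Hmox1 (-0.18), Mrc1 (0.06) and Mki67 (-0.06) gave differences in log2 fold change that were not called, which does not show that the genotypes acted alike.

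**Figure D4:**
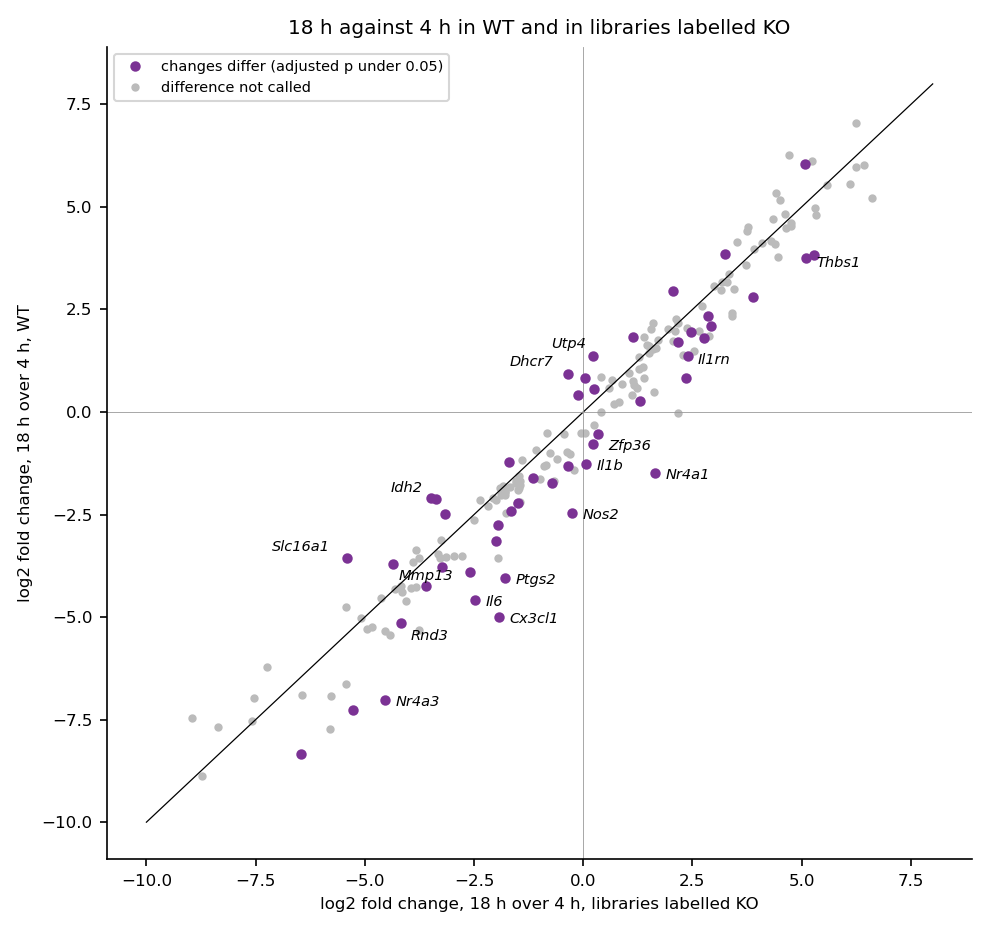
Log2 fold change of 18 h over 4 h in WT macrophages (vertical axis) and in the libraries labelled KO (horizontal axis) for the genes named in the text, with purple points where the difference between the changes had an adjusted p under 0.05. Il6, Nos2 and Ptgs2 lie below the line of equality, and Slc16a1 and Idh2 above it.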

How the data were processed

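mRNA-seq libraries of WT macrophages at 18 h and 4 h of LPS were compared. The authors deposited estimated counts for each RefSeq transcript in steps of 0.5, with no scaling to depth. Per the submitters' processing notes, CASAVA 1.8.2, HISAT2 2.1.0 and the mm10 build were used. The sources used here do not give the counting tool or its handling of strand and shared reads. Counts were rounded to whole numbers. Of 42361 transcripts, 42203 were named from RefSeq and 65 from GENCODE, and the 93 without a name, 0.232% to 2.23% of a library's total, were left out. The transcript with the highest mean stood for each of 25067 genes. edgeR 4.0.16 (quasi-likelihood test, TMM factors, filterByExpr, R 4.3.3) was fitted to all 21 libraries with 6 group means, and p-values were adjusted after Benjamini and Hochberg over 12529 genes. The fit was tested on simulated counts in which few genes changed, so that test does not cover data in which most genes change. Alternatives used limma 3.58.1, DESeq2 1.42.0, other scaling and filters, and left out each library.

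Named genes were 27 fixed genes, up to 12 of the largest called rises and of the largest called falls with a mean of at least 5 CPM and no overlap between times, for each list the largest such changes of either sign (at most 2 of a sign), and up to 8 genes each of the persisting, newly raised, transient and returning patterns. A further 7 were chosen after their values were seen. Some genes that this rule names are not reported here. The members and lists were chosen with earlier results of these data known. Promoters are from RefSeq (GRCm38.p6). WT libraries of one time differed by more than counting noise (chi-square per degree of freedom of 6.74 to 69.0 between pairs), and reads without molecular identifiers are not independent molecules.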

Additional observations from a re-analysis of the deposited data

Results flagged for a closer look

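With 4 libraries a time, the highest or lowest library was picked out where its gap to the nearest other, as a share of the range, passed the critical value of Dixon's test. Of 388 sets tested over the 194 genes named, 40 were picked out, and chance alone picks out about 5%. Library 1 at 4 h accounts for 23 of them, libraries 2, 3 and 4 at 4 h for 4 and the 18 h libraries for 13. Library 1 at 4 h was far above the others, with its CPM in brackets, in Saa3 (4039), Egr1 (71.3), Irf7 (2105), Nr4a1 (7.25), Slfn1 (117), H2-Q6 (83.9), H2-Q7 (48.3), Fcgr2b (1867), Cfb (632), Idi1 (45.1), Wdr43 (198), Aif1 (214), Pdgfrb (14.1), Ifit3 (2715), Tgtp2 (1039) and Fth1 (10586). It was far below them in B3gnt7 (7.99), Ccl24 (4.73), Btg1 (228), Cdkn1a (2409), Actn1 (243), Itgb8 (5.59) and Fscn1 (177). At 4 h, library 2 was the highest in Narf (2.62), and library 2 was the lowest in Nos2 (664) and Ifi47 (1386), and library 3 was the highest in Rnf213 (5970). At 18 h, library 1 was the highest in Il6 (24.7) and Nfkbia (376) and the lowest in Sesn2 (15.3) and Inpp5d (342). Library 2 of the same time was the highest in Stat6 (190) and the lowest in Ccl7 (777), Csrnp1 (27.1) and Sdc4 (317). Library 3 of the same time was the highest in Tmem200b (0.322) and Nr4a3 (0.322) and the lowest in Tlr6 (23.7). Library 4 of the same time was the highest in Aldoa (1134) and the lowest in Rrs1 (7.02).

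The WT change from 4 h to 18 h differed from the change in the libraries labelled KO at 48 of the 194 named genes, by edgeR's quasi-likelihood test of the difference itself at an adjusted p under 0.05. The difference in log2 fold change, WT minus labelled KO, is in brackets. It was negative in 33 genes, Il1b (-1.32), Il6 (-2.09), Nos2 (-2.20), Ptgs2 (-2.26), Fos (-0.97), Zfp36 (-0.86), H2-Ab1 (-1.04), Nr4a1 (-3.12), Asap3 (-1.89), Cnn3 (-1.99), Nr4a3 (-2.49), Cx3cl1 (-3.07), Tnfaip3 (-0.54), Btg1 (-0.46), Ifih1 (-0.74), Gbp5 (-1.14), Cd74 (-1.01), Havcr2 (-1.52), Nlrp3 (-0.79), Aim2 (-1.03), Thbs1 (-1.36), Pkm (-0.53), Ccnd2 (-0.75), Ccnd1 (-0.84), Nfil3 (-0.97), Per1 (-1.47), Rnd3 (-0.98), Sdc4 (-0.63), Adam8 (-0.53), Il1rn (-1.02), Fth1 (-0.44), Mmp13 (-1.29) and Il21r (-1.09). It was positive in 15 genes, Csf1r (0.47), Smad3 (0.98), Stat6 (0.33), Lgmn (0.53), Traf3 (0.70), Gas6 (0.67), Slc16a1 (1.85), Idh2 (1.25), Dhcr7 (1.28), Abca9 (1.41), Rxra (0.61), Rrs1 (0.69), Utp4 (1.13), Tef (0.88) and Ccr3 (0.78). The call held in all settings tried, among them leaving out each library, at 30 of these genes, and was lost in at least 1 setting at the other 18, which were Nos2, H2-Ab1, Csf1r, Smad3, Asap3, Cnn3, Cx3cl1, Btg1, Stat6, Ifih1, Cd74, Dhcr7, Rxra, Rrs1, Per1, Adam8, Ccr3 and Fth1.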

How the results depend on the processing

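Under scaling by median-of-ratios or upper-quartile factors, DESeq2, limma-voom, both other filters on low counts, a fit to the groups compared alone, transcripts summed per gene and the replicate block, the numbers of genes higher and lower at 18 h stayed within 1.5 times the reported ones. Leaving out 1 library at a time gave 4486 to 4609 higher and 4147 to 4233 lower genes. For the difference from the libraries labelled KO the ranges were 361 to 636 genes with the higher and 510 to 821 with the lower value in WT, the lowest both without library 2 at 4 h labelled KO. Over the named genes in WT, 3422 of the values under the alternatives kept direction and side of the threshold, 14 newly passed, 14 no longer passed and 1 was reversed: Egr1, with 1.62 without library 1 at 4 h and values from -0.35 to 1.62 as each library was left out. The labels do not say whether a library number pairs the samples. Deviations of same-numbered libraries at 18 h and 4 h correlated at 0.05, 0.06, -0.03 and 0.12. Those of different numbers correlated at -0.17 to 0.14. Such low values show no shared deviation, but they cannot tell whether a number stands for the same mouse or culture. With the number as a replicate block, 4716 genes were higher and 4369 lower, and for the difference from the libraries labelled KO 610 and 862. Depth limits genes of a few reads: the fitted log2 fold change of Tmem200b, with no read in 3 of the 18 h libraries, was -7.54, and -10.75 without library 3 at 18 h.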
